A study of Arabidopsis thaliana with 18 samples.

Results

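AZI1 (AT4G12470), EARLI1 (AT4G12480), AT4G12490 and AT4G12500 stand side by side on chromosome 4 of Arabidopsis thaliana and encode closely related lipid-transfer proteins. DIR1 (AT5G48485), on chromosome 5, encodes a smaller lipid-transfer protein of the same signalling pathway. These 5 genes, of 23790 in the count table, were chosen by locus, for their family and their place on the chromosome, at a time when their levels in these libraries were already known. Their levels and differences are therefore given as a description with no p-value. Their calls in the fit over all genes are only counted, beside the share of all genes called. All 5 passed the filter on low counts that left 18344 genes.

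Leaf RNA was sequenced in 18 libraries from 2 transgenic lines carrying a dexamethasone-inducible artificial microRNA (amiRNA): the NAA50 line, whose amiRNA is directed at the N-terminal acetyltransferase gene NAA50, and the scrambled line, whose amiRNA has a scrambled sequence and which is the negative control. Plants of both lines were 4 weeks old, grew under 8 h of light and 16 h of dark, were sprayed with 50 µM dexamethasone, and were sampled at 0, 12 and 24 h. Each of the 6 line-by-time groups holds 3 libraries, each made from 0.4 g of the 4th leaf of 4 pooled plants. The labels do not say how many independent insertion lines were used or whether the 3 pools came from separate sowings, so spreads and p-values measure only the difference between these pools. A library at 12 h was taken at another time of day than those at 0 and 24 h, so a change over 12 h within a line cannot be told apart from a daily rhythm.

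AZI1, EARLI1 and their neighbours are hybrid proline-rich proteins, with a signal peptide, a proline-rich stretch and a cysteine-rich lipid-transfer domain. AZI1 is known for systemic acquired resistance, in which azelaic acid and glycerol-3-phosphate formed in an infected leaf prime distant leaves for faster salicylic acid accumulation. EARLI1 acts with AZI1 in that response and was first described among genes induced early by aluminium, and DIR1 is a lipid-transfer protein that interacts with AZI1 and is needed for the mobile signal.

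The 4 tandem genes lie on the minus strand within 13869 bp of each other in TAIR10.1, and each has a single exon. AZI1 spans chr4:7401087-7401951, EARLI1 chr4:7406065-7406994, AT4G12490 chr4:7409621-7410406 and AT4G12500 chr4:7413990-7414955. The gaps between them measure 4113, 2626 and 3583 bp in that order. The 250 bases before the annotated transcript starts of AZI1 and EARLI1, read on the minus strand from the RefSeq genome (TAIR10.1), are shown because these neighbours are near copies whose levels follow different time courses. Capitals mark TTGAC, the core of the W-box bound by WRKY factors.
AZI1 promoter, chr4:7401952-7402201: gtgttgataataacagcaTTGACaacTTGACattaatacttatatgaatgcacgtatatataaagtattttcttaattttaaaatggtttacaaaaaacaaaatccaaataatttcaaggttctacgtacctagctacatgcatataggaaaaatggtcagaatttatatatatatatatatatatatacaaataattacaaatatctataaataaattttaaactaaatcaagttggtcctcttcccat
EARLI1 promoter, chr4:7406995-7407244: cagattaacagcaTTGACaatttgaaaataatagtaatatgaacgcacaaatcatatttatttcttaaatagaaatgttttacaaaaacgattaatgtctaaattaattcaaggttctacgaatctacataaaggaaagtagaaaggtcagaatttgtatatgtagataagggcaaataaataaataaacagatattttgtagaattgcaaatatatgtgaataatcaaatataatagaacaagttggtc

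AZI1 holds 2 matches to TTGAC, starting at positions -232 and -224 counted from its transcript start, and EARLI1 holds 1, starting at -237. Of 27443 promoters of the same length in the annotation, 44.9% hold TTGAC on either strand. ACGTG, the core of abscisic acid response elements, occurs once in the AZI1 promoter, where it lies on the opposite strand, against 22.9% of all promoters. TGACG, bound by TGA factors, CACGTG, and CCGAC, the core bound by cold-response CBF factors, were found in neither, against 18.6%, 6.49% and 12.0% of all promoters, with both strands searched. ACGTG is contained in CACGTG, and TGACG can overlap TTGAC. The promoters of AZI1 and EARLI1 were identical at 80.5% of aligned bases. A match of letters is a description of the sequence only.

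The coding sequences of the 4 genes were identical at 86.5% to 92.9% of aligned bases, and the pair AT4G12490 and AT4G12500 was the closest. That pair shares an identical run of 87 bases inside the coding sequence, at chr4:7409848-7409934 and chr4:7414387-7414473, shown because a read lying wholly within it fits both genes.
Run shared by AT4G12490 and AT4G12500: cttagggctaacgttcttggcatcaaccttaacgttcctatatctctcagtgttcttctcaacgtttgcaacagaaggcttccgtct

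Of windows of 50 bases, 50 of 737 (6.78%) in the AT4G12490 transcript and 50 of 917 (5.45%) in the AT4G12500 transcript occurred elsewhere in the genome. No such window of AZI1, EARLI1 or DIR1 did. The bases that repeated windows cover are a larger share of each transcript than these percentages. No window of 100 bases was repeated in any of the 5 genes. The read length is not given in the sources used here, so levels of AT4G12490 and AT4G12500 are uncertain by the reads that fall in shared windows. Short genes on the opposite strand are annotated over 282 bp of AT4G12490 and 32 bp of EARLI1 and were not analysed here.

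Library totals ran from 10389333 to 12353330 counts, and levels are given as CPM, counts scaled to a common library size after a correction for library composition. Where a gene has no count, 3 counts set its upper limit, or 0.224 to 0.322 CPM by library, which covers counting error only. NAA50 (AT5G11340) was lower in the NAA50 line by a log2 difference of -2.03 ± 0.18 (SE) at 12 h (edgeR quasi-likelihood test, adjusted p = 5.38e-07) and -2.28 ± 0.18 at 24 h (edgeR adjusted p = 1.47e-07), against -0.16 ± 0.16 at 0 h (edgeR adjusted p = 0.664). All 6 mesophyll markers were present in every library, from 252.5 CPM upwards, and the 3 root markers, listed to check the leaf label, stayed between 0 and 1.32 CPM.

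AZI1 had the largest difference between the lines among the 5 genes at 12 and 24 h. At 12 h its level was 133, 170 and 200.2 CPM in the NAA50 line, against 8.75, 5.80 and 4.71 CPM in the scrambled line. At 24 h it was 111, 108 and 65.4 CPM in the NAA50 line and 2.15, 2.17 and 1.47 CPM in the scrambled line. At 0 h it was 1.61, 5.73 and 1.21 CPM in the NAA50 line and 0.471, 1.07 and 0.900 CPM in the scrambled line. The lines did not overlap at any time, and the high libraries are the 6 of the NAA50 line after the spray. In bulk leaf RNA, more cells that express a gene and more RNA per cell cannot be told apart.

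Fitted log2 differences of AZI1 between the NAA50 line and the scrambled line were 1.77 ± 0.60 (SE) at 0 h, 4.70 ± 0.40 at 12 h and 5.62 ± 0.44 at 24 h, or 3.36-fold, 26.0-fold and 48.2-fold. Within the NAA50 line the log2 change from 0 h was 5.91 ± 0.43 at 12 h and 5.09 ± 0.42 at 24 h. Within the scrambled line AZI1 was also higher after the spray, by 2.98 ± 0.54 at 12 h and 1.24 ± 0.63 at 24 h. The knockdown response, which is the line difference after the spray minus that at 0 h, was 2.94 ± 0.79 at 12 h and 3.85 ± 0.84 at 24 h. One NAA50 line library at 0 h, replicate 2, carries much of the 0 h level: without it the 0 h difference was 0.79 and the responses were 3.91 and 4.82.

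Ordered by mean level, AZI1 was highest in the NAA50 line at 12 h (168 ± 33.7 CPM, SD, n = 3), then at 24 h in the same line (94.8 ± 25.5). Lower levels followed in the scrambled line at 12 h (6.42 ± 2.09), in the NAA50 line at 0 h (2.85 ± 2.50), the scrambled line at 24 h (1.93 ± 0.403) and the scrambled line at 0 h (0.815 ± 0.310). Libraries of the NAA50 line at 0 h overlap those of the scrambled line at 12 h and at 24 h. The other neighbours in that order do not overlap.

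**Figure D1:**
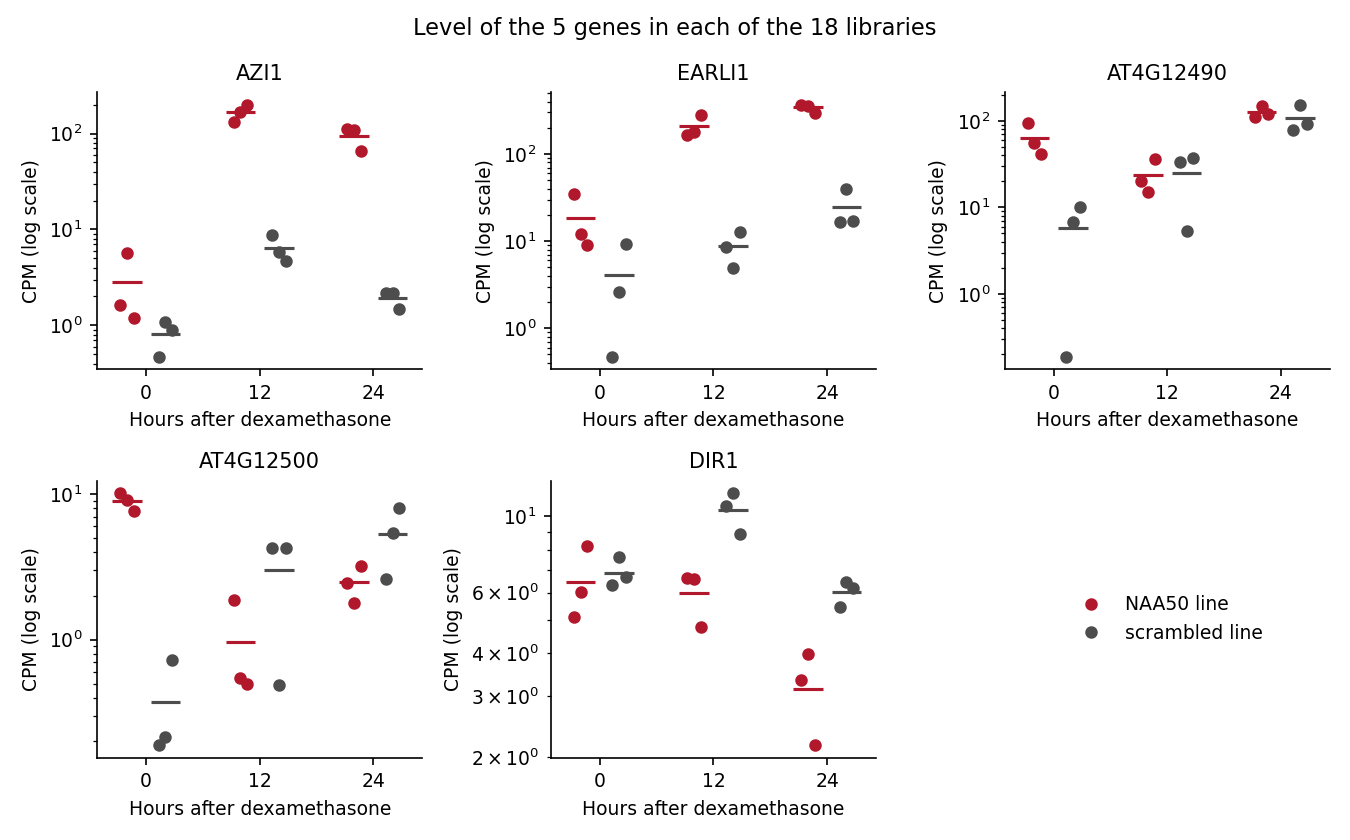
Level of AZI1, EARLI1, AT4G12490, AT4G12500 and DIR1 in CPM (log axis, its range set per panel) at 0, 12 and 24 h after dexamethasone. Points are libraries, bars are means of 3 libraries, red is the NAA50 line and grey the scrambled line. AZI1 and EARLI1 sit between 65.4 and 370 CPM in the NAA50 line after the spray, above every scrambled line library, while AT4G12490 overlaps between the lines at 12 and 24 h.

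EARLI1 was also higher in the NAA50 line after the spray, with a different time course. At 12 h its level was 166, 181 and 279.8 CPM in the NAA50 line, against 8.47, 4.91 and 12.7 CPM in the scrambled line. At 24 h it was 369.5, 359.7 and 298 CPM in the NAA50 line and 16.5, 40.1 and 17.2 CPM in the scrambled line. At 0 h it was 34.4, 12.22 and 8.93 CPM in the NAA50 line and 0.471, 2.58 and 9.36 CPM in the scrambled line. The lines overlap at 0 h and not at 12 or 24 h.

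The log2 difference of EARLI1 between the NAA50 line and the scrambled line was 2.14 ± 0.68 at 0 h, 4.58 ± 0.68 at 12 h and 3.80 ± 0.64 at 24 h. Its log2 change from 0 h to 12 and 24 h was 3.49 ± 0.63 and 4.21 ± 0.65 in the NAA50 line, and 1.05 ± 0.70 and 2.54 ± 0.68 in the scrambled line. The knockdown response was 2.44 ± 0.92 at 12 h and 1.66 ± 0.90 at 24 h. That response rests on the libraries at 0 h: without replicate 3 of the scrambled line at 0 h it was 0.94 and 0.16, and without replicate 1 of the NAA50 line at 0 h it was 3.25 and 2.47. In order of mean level EARLI1 ran from the NAA50 line at 24 h (342 ± 38.9 CPM) and 12 h (209 ± 61.95) to the scrambled line at 24 h (24.6 ± 13.45), the NAA50 line at 0 h (18.5 ± 13.9) and the scrambled line at 12 h (8.69 ± 3.89) and 0 h (4.14 ± 4.65). The last 4 of these groups each overlap the next, and the first 2 stand apart from each other and from the rest.

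AT4G12490 had its clearest separation before the spray. At 0 h its level was 93.7, 55.5 and 41.3 CPM in the NAA50 line and 0.188, 6.76 and 10.2 CPM in the scrambled line, with no overlap. At 12 h it was 20, 14.9 and 36.1 CPM in the NAA50 line and 33.4, 5.31 and 37.0 CPM in the scrambled line. At 24 h it was 111, 147 and 120 CPM in the NAA50 line and 77.8, 154 and 91.9 CPM in the scrambled line. The lines overlap at 12 and 24 h, and scrambled replicate 1 at 0 h is the lowest of all 18 libraries.

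The fitted log2 difference of AT4G12490 between the lines was 3.47 ± 0.74 at 0 h, -0.10 ± 0.66 at 12 h and 0.23 ± 0.63 at 24 h, and the 12 h value changed sign when libraries were scaled by total count alone (0.08). The log2 change from 0 h to 12 and 24 h was -1.42 ± 0.66 and 0.99 ± 0.64 in the NAA50 line, and 2.14 ± 0.73 and 4.23 ± 0.76 in the scrambled line. The knockdown response was -3.57 ± 0.99 at 12 h and -3.24 ± 0.96 at 24 h, and it ran from -4.33 to -2.99 and from -4.01 to -2.67 when single libraries were left out. By mean level the NAA50 line at 24 h (126 ± 18.7 CPM) came first, and it overlaps the scrambled line at 24 h (108 ± 40.35), which overlaps the NAA50 line at 0 h (63.5 ± 27.1). At 12 h the NAA50 line (23.7 ± 11.1) and the scrambled line (25.2 ± 17.3) overlap each other, and the scrambled line at 0 h (5.71 ± 5.07) lies below the NAA50 line at 12 h without overlap, though 1 scrambled line library at 12 h falls within its range.

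AT4G12500 had a lower mean level per kb than EARLI1 and AT4G12490 in all 6 groups, and a higher one than AZI1 in the NAA50 line at 0 h and the scrambled line at 24 h. At 0 h it stood at 10.2, 9.17 and 7.64 CPM in the NAA50 line, against 0.188, 0.215 and 0.720 CPM in the scrambled line, where the 3 libraries held 2, 2 and 8 counts. At 12 h it stood at 1.88, 0.549 and 0.493 CPM in the NAA50 line and 4.28, 0.491 and 4.26 CPM in the scrambled line. At 24 h it stood at 2.46, 1.796 and 3.20 CPM in the NAA50 line and 2.60, 5.43 and 7.97 CPM in the scrambled line. The lines do not overlap at 0 h and overlap at 12 and 24 h. By mean level the order was the NAA50 line at 0 h (8.99 ± 1.28 CPM), the scrambled line at 24 h (5.34 ± 2.69) and 12 h (3.01 ± 2.18), the NAA50 line at 24 h (2.49 ± 0.704) and 12 h (0.972 ± 0.782) and the scrambled line at 0 h (0.374 ± 0.2997), and each group overlaps the next.

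From 0 h, the log2 change of AT4G12500 had opposite signs in the 2 lines. It was -3.19 ± 0.62 at 12 h and -1.84 ± 0.55 at 24 h in the NAA50 line, and 2.95 ± 0.79 and 3.76 ± 0.75 in the scrambled line. Every NAA50 line library at 12 and 24 h lies below the lowest NAA50 line library at 0 h, and every scrambled line library at 24 h lies above the highest one at 0 h. The difference between the lines after the spray was -1.62 ± 0.65 at 12 h and -1.09 ± 0.56 at 24 h. The knockdown response of -6.13 ± 0.99 at 12 h and -5.60 ± 0.93 at 24 h has the 12 counts of the scrambled line at 0 h as its base, and without scrambled replicate 3 at 0 h it was -7.03 and -6.50.

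**Figure D2:**
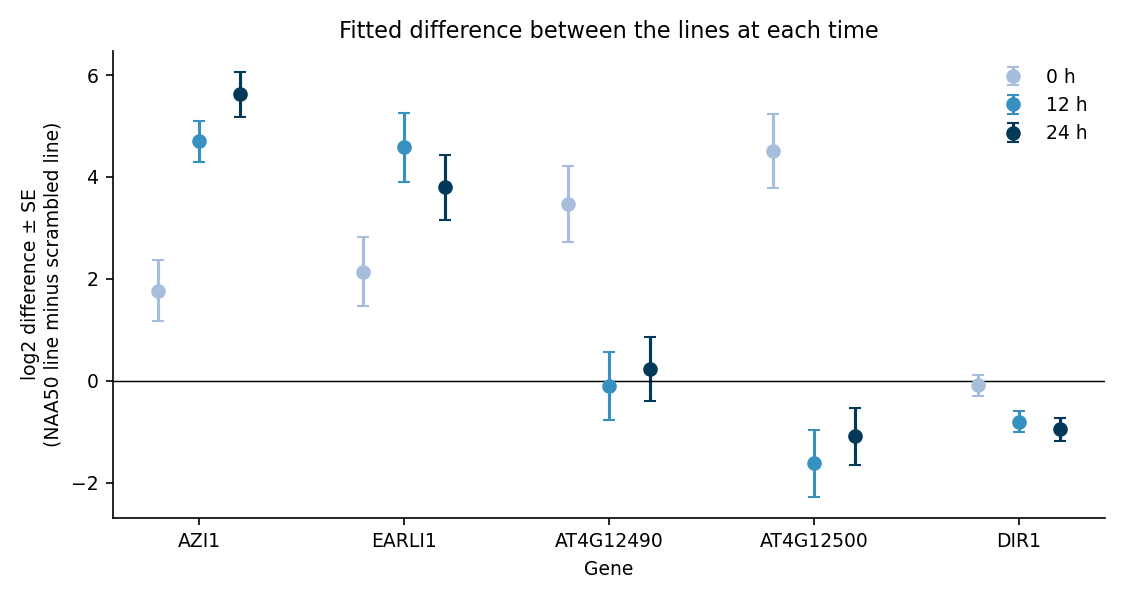
Fitted log2 difference between the NAA50 line and the scrambled line for each of the 5 genes at 0, 12 and 24 h, with bars of 1 SE from 3 libraries a group. AZI1 runs upwards over the 3 times to 5.62, AT4G12490 and AT4G12500 are highest at 0 h, at 3.47 and 4.51, and DIR1 is at or below 0 throughout.

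Per kb of transcript, the make-up of the cluster differed between the groups. AZI1 and EARLI1 together made up 92.4%, 95.2% and 92.0% of the cluster's summed CPM per kb in the NAA50 line at 12 h, against 29.1%, 62.3% and 27.1% in the scrambled line. At 24 h they made up 78.5%, 73.0% and 71.7% in the NAA50 line and 16.6%, 18.5% and 13.9% in the scrambled line. At 0 h they made up 23.1%, 19.8% and 15.4% in the NAA50 line and 70.7%, 31.3% and 44.8% in the scrambled line, where scrambled replicate 1 holds a summed level of 1.49 CPM per kb only. The 2 lines do not overlap at any time, and the NAA50 line is the lower one at 0 h and the higher one at 12 and 24 h.

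AT4G12490 held the largest mean share in the NAA50 line at 0 h (71.6%) and in the scrambled line at 0 h (45.1%), 12 h (55.3%) and 24 h (80.3%). Summed over the 4 genes, which does not depend on how reads were split between the copies, the mean level was 93.8, 401.1 and 566 CPM at 0, 12 and 24 h in the NAA50 line and 11.03, 43.3 and 139.7 CPM in the scrambled line. The log2 difference of that sum was 3.08 ± 0.64 at 0 h, 3.21 ± 0.63 at 12 h and 2.02 ± 0.59 at 24 h, and its knockdown response was 0.13 ± 0.85 at 12 h and -1.06 ± 0.84 at 24 h. The response of AZI1 was positive and those of AT4G12490 and AT4G12500 negative, as given above for each gene.

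**Figure D3:**
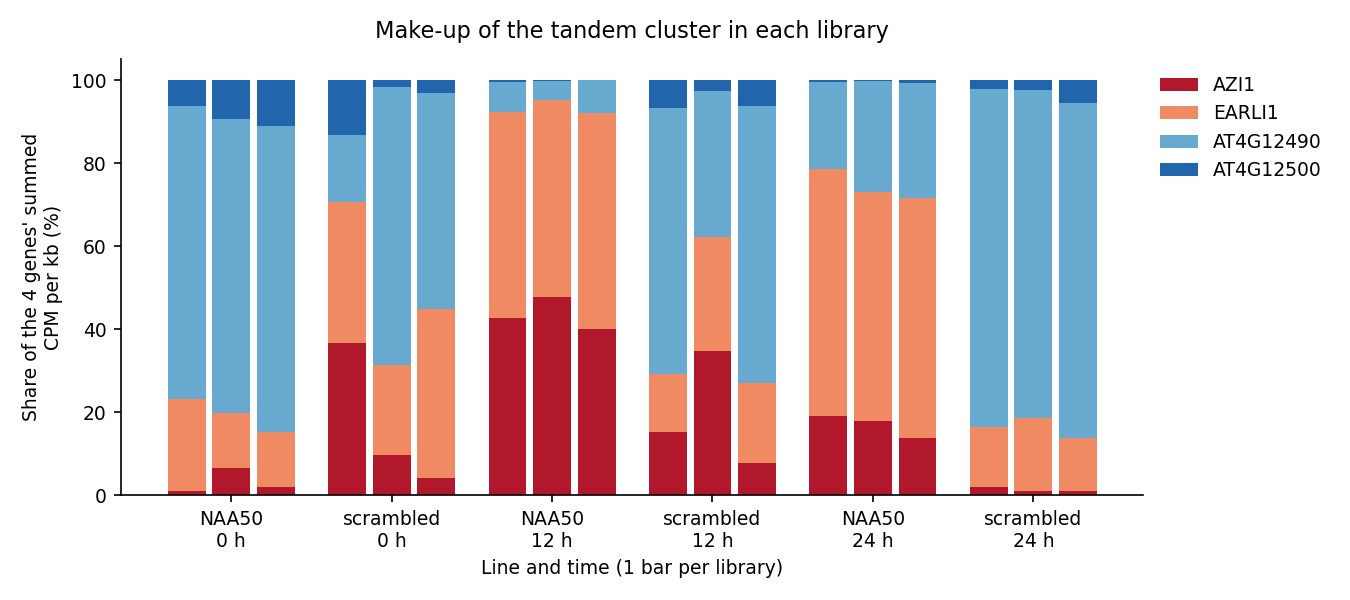
Share of each tandem gene in the 4 genes' summed CPM per kb (percent, axis from 0), with 1 stacked bar per library, grouped by line and time. Reds are AZI1 and EARLI1 and blues AT4G12490 and AT4G12500, and the red part reaches 92.0% to 95.2% in the NAA50 line at 12 h and 13.9% to 18.5% in the scrambled line at 24 h.

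Across the 18 libraries, log2 CPM of AZI1 and EARLI1 correlated at r = 0.87 and that of AT4G12490 and AT4G12500 at r = 0.74, while AZI1 and AT4G12500 stood at r = -0.14. These libraries share lines, times and scaling, and the values are a description. After subtraction of the group means the strongest correlation among the 10 pairs was that of EARLI1 with AT4G12490, at 0.88, while AZI1 and EARLI1 stood at 0.23. Replicate 1 of the scrambled line at 0 h and replicate 2 of the scrambled line at 12 h are among the libraries in which EARLI1 and AT4G12490 are low together.

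DIR1 behaved unlike the tandem genes and varied over a narrow range. At 12 h its level was 6.64, 6.59 and 4.76 CPM in the NAA50 line, against 10.8, 11.7 and 8.88 CPM in the scrambled line. Its 24 h level was 3.34, 3.97 and 2.16 CPM in the NAA50 line and 5.47, 6.43 and 6.18 CPM in the scrambled line. At 0 h it was 5.09, 6.01 and 8.20 CPM in the NAA50 line and 6.31, 7.62 and 6.66 CPM in the scrambled line. The lines overlap at 0 h, and the NAA50 line is the lower one without overlap at 12 and 24 h.

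The log2 difference of DIR1 was -0.09 ± 0.21 at 0 h, -0.80 ± 0.21 at 12 h and -0.95 ± 0.23 at 24 h, and the 0 h value changed sign with scaling by total count (0.02). The knockdown response was -0.71 ± 0.30 at 12 h and -0.86 ± 0.31 at 24 h. The log2 change of DIR1 from 0 h to 12 and 24 h was -0.10 ± 0.21 and -1.04 ± 0.23 in the NAA50 line, and 0.61 ± 0.21 and -0.18 ± 0.22 in the scrambled line. In mean level the scrambled line at 12 h (10.4 ± 1.43 CPM) stands above the rest and the NAA50 line at 24 h (3.16 ± 0.919) below it, and the 4 other groups, from 5.996 to 6.86 CPM, each overlap the next.

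DIR1 lies at chr5:19646028-19646840 on the minus strand, and all 813 bp of its transcript are covered by exons of AT5G48480, which spans chr5:19644539-19646840 on the plus strand. The library kit keeps strand, but the strand setting of the counting is not given in the sources used here. Whether the counting kept reads of the 2 genes apart was not tested. In the scrambled line at 12 h DIR1 held 118, 119 and 98 counts and AT5G48480 61, 34 and 53. In the NAA50 line at 12 h DIR1 held 85, 84 and 58 counts and AT5G48480 162, 186 and 152. At 12 h AT5G48480 was counted at 12.7, 14.6 and 12.5 CPM in the NAA50 line and at 5.56, 3.34 and 4.80 CPM in the scrambled line. At 24 h it was counted at 10.1, 12.0 and 8.05 CPM in the NAA50 line and at 2.42, 5.07 and 3.82 CPM in the scrambled line. Its log2 difference was 1.53 ± 0.24 at 12 h (edgeR adjusted p = 9.93e-05) and 1.41 ± 0.24 at 24 h (edgeR adjusted p = 0.000221), opposite in sign to that of DIR1. Its knockdown response was 1.13 ± 0.34 at 12 h (edgeR adjusted p = 0.0246) and 1.01 ± 0.35 at 24 h (edgeR adjusted p = 0.0384), calls lost in 4 and 10 of 23 alternative fits. It was looked at because of its position, after its values could be seen.

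**Figure D4:**
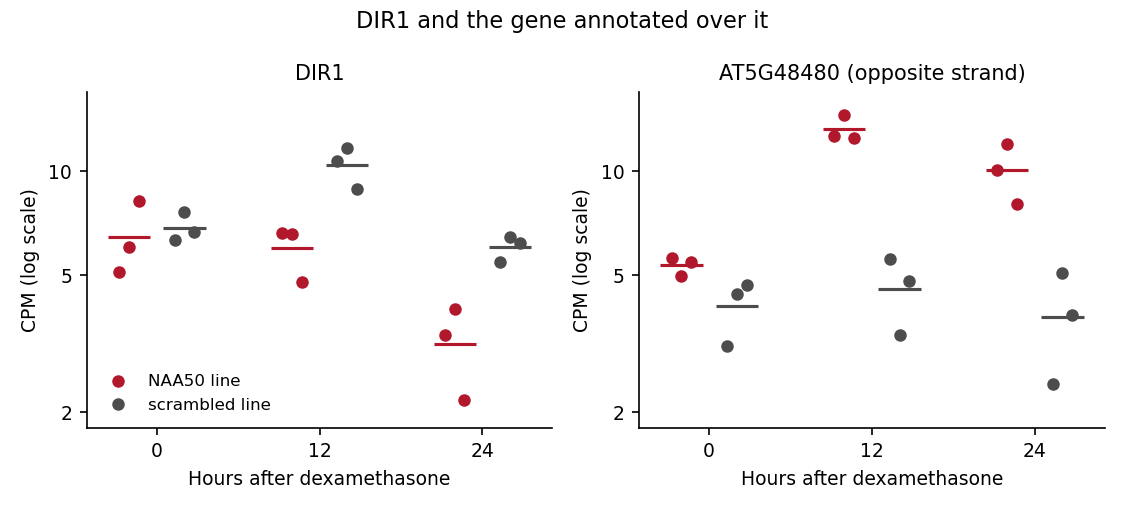
Level of DIR1 (left) and of AT5G48480, annotated over it on the opposite strand (right), in CPM (log axis, the same range in both panels) at 0, 12 and 24 h. Points are libraries, bars means of 3 libraries, red the NAA50 line and grey the scrambled line. At 12 and 24 h DIR1 is lower and AT5G48480 higher in all NAA50 line libraries than in any scrambled line library.

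In the fit over all genes, 1 of the 5 genes was called at an adjusted p under 0.05 in the line difference at 0 h (AT4G12500), where 0.0981% of the 18344 genes tested were called. At 12 h and at 24 h 3 were called (AZI1 and EARLI1 as higher and DIR1 as lower in the NAA50 line), where 46.2% and 47.9% of all genes were called. In the knockdown response 3 were called at 12 h and at 24 h (AZI1 as higher, AT4G12490 and AT4G12500 as lower), where 25% and 29.8% of all genes were called. The AZI1 call at 12 h was lost without replicate 2 or replicate 3 of the scrambled line at 0 h (2.75 and 2.84). The AT4G12500 call at 0 h was lost without replicate 1 or 3 of the NAA50 line (4.41 and 4.61) or replicate 1 or 2 of the scrambled line (4.18 and 4.26) at that time. Of calls gained in alternative fits, only that of AZI1 at 0 h with the DESeq2 test (1.79) is given here. The 3 libraries of each line did not overlap for 3 of the 5 genes at each time, where this held for 15.7% of all genes at 0 h, 59.2% at 12 h and 54.1% at 24 h. The genes were picked with these values known, and the counts carry no further reading. The median log2 difference over all genes was 0 at 0 h and -0.03 at 12 and at 24 h.

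Genes whose log2 CPM followed that of AZI1 most closely across the 18 libraries, of 15906 genes compared, were OBP1 (a Dof transcription factor, Pearson r = 0.971), AT1G10740 (0.969), ALDH10A8 (an aminoaldehyde dehydrogenase, 0.969), MTN1 (a methylthioadenosine nucleosidase, 0.968), MES11 (a methylesterase, 0.967), AT5G04980 (0.967), cICDH (the cytosolic isocitrate dehydrogenase, 0.967) and AT3G23300 (0.966). MES11 averaged 8.07, 489 and 403 CPM at 0, 12 and 24 h in the NAA50 line and 8.76, 20.2 and 13.8 CPM in the scrambled line. OBP1 averaged 0.884, 30.0 and 14.1 CPM in the NAA50 line and 0.410, 1.17 and 0.634 CPM in the scrambled line. DIR1 was followed most closely by AT1G68810 (r = 0.926), IAA7 (an auxin response repressor, 0.920), TRY (a trichome repressor, 0.901), AT2G03420 (0.895) and GGT1 (a photorespiratory aminotransferase, 0.891). These correlations are over libraries that share groups and scaling.

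Of 25 other proline-rich lipid-transfer genes of the AZI1 kind, 17 were in the table and 8 passed the filter. At 12 h and again at 24 h 1 was higher, 3 were lower and 4 were not called in the NAA50 line, with a median log2 difference of -0.45 and -0.09, where 46.2% and 47.9% of all genes were called. At 12 h AT2G45180 averaged 34.5 CPM in the NAA50 line and 396 CPM in the scrambled line, a log2 difference of -3.52 ± 0.42 (edgeR adjusted p = 9.38e-06), and differed by -3.91 ± 0.42 at 24 h (edgeR adjusted p = 3.26e-06). AT3G22142 was higher by 0.94 ± 0.21 at 12 h (edgeR adjusted p = 0.0017) and 1.79 ± 0.22 at 24 h (edgeR adjusted p = 1.1e-05). AT2G10940 was lower by a log2 difference of -2.24 ± 0.54 at 12 h (edgeR adjusted p = 0.00316), and AT1G62510 by -2.28 ± 0.53 at 24 h (edgeR adjusted p = 0.00228). AT2G45180 and AT3G22142 were also called in both knockdown responses, at -2.88 and 1.46 at 12 h and -3.27 and 2.31 at 24 h.

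Of 16 other lipid-transfer genes tested, 2 were higher and 3 lower at 12 h and 5 were higher and 2 lower at 24 h, with medians of -0.31 and 0.73. Of all genes tested, 46.2% were called at 12 h and 47.9% at 24 h. AT3G18280 was higher by 1.44 ± 0.20 at 12 h (edgeR adjusted p = 4.52e-05) and 1.59 ± 0.20 at 24 h (edgeR adjusted p = 1.39e-05). LP1 and LTPG1, which encode abundant epidermal and membrane-anchored lipid-transfer proteins, were higher by 1.35 ± 0.24 (edgeR adjusted p = 0.000311) and 1.31 ± 0.26 (edgeR adjusted p = 0.000799) at 24 h. AT1G48750 had a knockdown response at 12 h of -1.24 ± 0.36 (edgeR adjusted p = 0.0189), and its call was lost without replicate 3 of the NAA50 line at 0 h or replicate 1 at 12 h. XYP2, a xylogen protein gene, had 0 counts in the NAA50 line at 12 h, against 92 counts in the scrambled line, which makes it at least 12-fold lower with 3 counts per library as the limit (edgeR adjusted p = 2.4e-06).

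AT5G48490, the DIR1-like gene next to DIR1, was low after the spray in both lines. It had 1 count over the 3 NAA50 line libraries at 12 h, against 40 counts in the scrambled line, a ratio of 46.9 in favour of the scrambled line (95% exact binomial interval 7.95 to 1900, counting error only). Its line difference at 12 h was called (edgeR adjusted p = 0.0194), and the call was lost without replicate 1 or replicate 3 of the NAA50 line at 12 h. At 0 h it averaged 6.90 ± 4.07 CPM in the NAA50 line and 19.5 ± 4.83 CPM in the scrambled line (edgeR adjusted p = 0.322).

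Genes known from azelaic acid and glycerol-3-phosphate signalling went both ways. Of 16 tested, 4 were higher and 4 lower in the NAA50 line at 12 h, with a median of 0.11. At 24 h 5 were higher and 5 lower, with a median of -0.07. Calls over all genes also went both ways, with 46.2% called at 12 h and 47.9% at 24 h. Whether the list differs from all genes was not tested. PDLP1, a plasmodesmata protein that associates with AZI1, was higher by 1.91 ± 0.30 at 12 h (edgeR adjusted p = 0.000125) and 3.19 ± 0.29 at 24 h (edgeR adjusted p = 5.64e-07), at 16.0 CPM in the NAA50 line and 1.73 CPM in the scrambled line at 24 h. HWI1 (PDLP5), on the same list and picked after its values were seen, went the other way at 24 h. Its line difference was -1.20 ± 0.38 (edgeR adjusted p = 0.0178) and its knockdown response -1.79 ± 0.57 (edgeR adjusted p = 0.0267). NIA2, a nitrate reductase gene, was higher by 0.76 ± 0.14 at 12 h (edgeR adjusted p = 0.000523). FAD7, a chloroplast fatty acid desaturase gene, was lower by a log2 difference of -1.23 ± 0.22 at 12 h (edgeR adjusted p = 0.000417).

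NOA1, linked to nitric oxide, stood at -1.11 ± 0.13 at 24 h (edgeR adjusted p = 8.56e-06), and AT5G03350, a legume lectin-like gene of systemic resistance, at -2.47 ± 0.43 (edgeR adjusted p = 0.000251). Among the genes that make glycerol-3-phosphate, the knockdown response of GPDHC1 was 1.90 ± 0.38 at 24 h (edgeR adjusted p = 0.00186), and that of GLY1 was 1.18 ± 0.40 at 12 h (edgeR adjusted p = 0.0405), a call lost in 11 of 23 alternative fits. None of the 16 was called at 0 h by edgeR, with 5 at an unadjusted p under 0.05 and 1 called by DESeq2.

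Of 12 salicylic acid and pipecolic acid genes tested, 2 were lower in the NAA50 line at 12 h and 4 at 24 h, and none was higher at either time, where 4466 and 4416 of the 18344 genes tested were lower. Their medians were -0.32 and -0.59. ALD1, needed for pipecolic acid synthesis, was lower by a log2 difference of -2.98 ± 0.70 at 12 h (edgeR adjusted p = 0.00268) and -2.28 ± 0.65 at 24 h (edgeR adjusted p = 0.00923). PAD4, an immune regulator, differed by -1.67 ± 0.45 at 24 h (edgeR adjusted p = 0.00612), and EDS16, which encodes isochorismate synthase, by -1.48 ± 0.47 (edgeR adjusted p = 0.0173), lost without replicate 2 or replicate 3 of the NAA50 line at 24 h. FMO1, which acts after ALD1, differed by -1.79 ± 0.70 at 12 h (edgeR adjusted p = 0.0469), a call lost in 15 of 23 alternative fits. At 0 h FMO1 differed by 1.91 ± 0.74 (edgeR adjusted p = 0.314). Its knockdown response at 12 h was -3.69 ± 1.02 (edgeR adjusted p = 0.0156), a call lost in 0 of 23 alternative fits. In the knockdown response 3 of the 12 genes were lower at 12 h and 4 at 24 h, and 0 were higher, where 13.2% and 15.1% of all genes were lower. NPR1, a salicylic acid receptor, had a knockdown response of -0.78 ± 0.22 at 24 h (edgeR adjusted p = 0.0167).

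At 0 h the summed level of these 12 genes was 3009, 3483 and 3819 CPM in the NAA50 line and 1600, 504 and 3193 CPM in the scrambled line. Replicates 1 and 2 of the scrambled line have the lowest EARLI1, AT4G12490 and AT4G12500 levels at that time. AZI1 had another order there, at 0.471, 1.07 and 0.900 CPM, with its highest level in replicate 2. The summed tandem level of the scrambled line was lowest in replicate 1 (1.32 CPM), while the sum of the 12 genes was lowest in replicate 2. At 12 h the sum was 3229, 3158 and 4432 CPM in the NAA50 line and 3080, 3707 and 5777 CPM in the scrambled line, where replicate 2, with the lowest summed tandem level of its group, held the middle value. The 24 h sum was 8389, 4560 and 8771 CPM in the NAA50 line and 9130, 12890 and 7356 CPM in the scrambled line. NAA50 line replicate 2, with the lowest of these, had the highest summed tandem level of its group. Scrambled line replicate 2, with the highest, also had the highest summed tandem level of its group (201.4 CPM). The same library was highest in both sums in the NAA50 line at 12 h and the scrambled line at 0, 12 and 24 h. In the NAA50 line at 0 and 24 h it was not. PR1, BGL2 and PR5 averaged 635, 1134 and 883 CPM in the NAA50 line at 0 h and hold most of the 12 genes' sum there. The part of that sum in the tandem genes' 0 h difference was not tested.

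Of 11 cold, drought and abscisic acid markers tested, 4 were higher in the NAA50 line at 12 h and 8 at 24 h and none was lower, where 21.9% and 23.9% of all genes were higher. Their medians were 1.92 and 3.69, and the values not called included RAB18 at 0.09 at 12 h (edgeR adjusted p = 0.941) and COR15B at 0.48 at 24 h (edgeR adjusted p = 0.587), both picked after their values were seen. COR47 and ERD10, which encode dehydrins, were higher at 24 h by 4.07 ± 0.53 (edgeR adjusted p = 1.76e-05) and 3.89 ± 0.52 (edgeR adjusted p = 2.47e-05). HAI1, a protein phosphatase of abscisic acid signalling, was higher by 3.77 ± 0.98 at 12 h (edgeR adjusted p = 0.00531), and KIN2 by 2.43 ± 0.56 at 24 h (edgeR adjusted p = 0.00235). Before the spray HAI1 differed by 5.52 ± 1.24 (edgeR adjusted p = 0.0995). Its knockdown response was negative and not called, at -1.75 ± 1.63 at 12 h and -2.67 ± 1.56 at 24 h. The response of KIN2 at 24 h was 1.23 ± 0.76 and was not called (edgeR adjusted p = 0.243).

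At 0 h the median difference of the cold and abscisic acid markers was 2.49, and none was called there by edgeR, with 10 at an unadjusted p under 0.05 and 5 called by DESeq2. In the knockdown response none was called at 12 h by edgeR (2 at an unadjusted p under 0.05, 1 by DESeq2), and 2 were called as higher at 24 h, while the median response was -1.75 and -0.78. Their summed level at 0 h was 449.5, 287 and 3313 CPM in the NAA50 line and 334.7, 330.3 and 432.8 CPM in the scrambled line. The lines overlap with or without replicate 3 of the NAA50 line, which stood apart. That replicate has the lowest AZI1, EARLI1, AT4G12490 and AT4G12500 levels of its group.

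**Figure D5:**
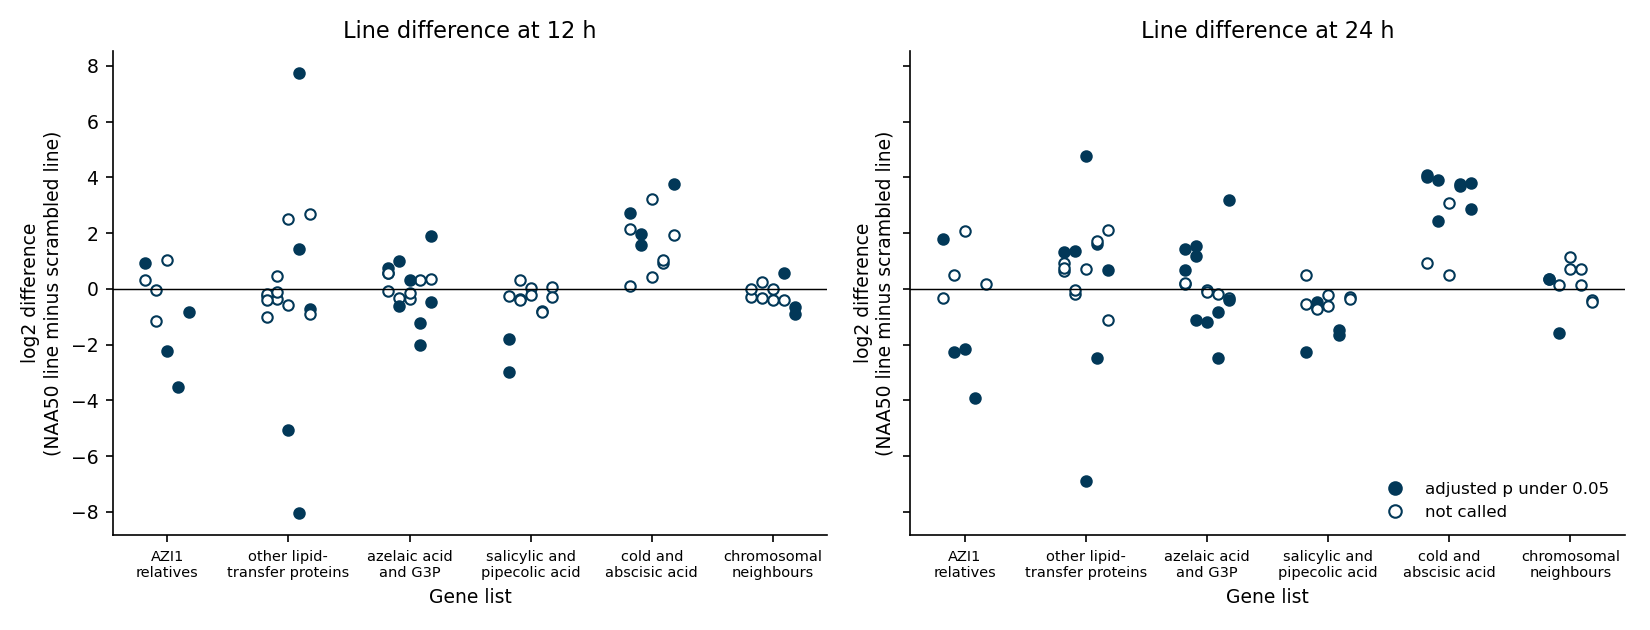
Fitted log2 difference between the NAA50 line and the scrambled line at 12 h (left) and 24 h (right) for each tested gene of the 6 gene lists. Filled points have an adjusted p under 0.05. The cold and abscisic acid list has 8 filled points at 24 h, all above 0, and the salicylic and pipecolic acid list 4, all below 0, and points beyond 5 in either direction are lipid-transfer genes with 0 to 2 counts in a group, whose fitted size is not a bound.

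Of 10 tested neighbours of the tandem cluster, with locus numbers from AT4G12400 to AT4G12600, 1 was higher and 2 were lower in the NAA50 line at 12 h and 1 was higher and 1 lower at 24 h, where 46.2% and 47.9% of all genes were called. Their medians were -0.30 and 0.25. TPPF and AT4G12432 among them had identical levels in every group, neither was called, and the medians count these values for both genes. ORP2B, the closest tested gene below AZI1 in locus order, differed by -0.66 ± 0.18 at 12 h (edgeR adjusted p = 0.00705), and AT4G12600 by -0.89 ± 0.26 (edgeR adjusted p = 0.0109). AT4G12590 was higher by 0.56 ± 0.10 at 12 h (edgeR adjusted p = 0.000432). SKU5, a cell wall protein gene of root growth, differed by -1.57 ± 0.38 at 24 h (edgeR adjusted p = 0.00327) and CPR1, an F-box gene that restrains immunity, by 0.34 ± 0.09 (edgeR adjusted p = 0.00679). None of the neighbours was called at 0 h by edgeR or DESeq2, and none had an unadjusted p under 0.05.

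Summed levels of leaf cell type markers overlapped between the lines at 0 h for each cell type listed, and separated the lines at some times after the spray. At 0 h the guard cell sum was 54.7, 63.0 and 55.1 CPM in the NAA50 line and 75.3, 76.7 and 62.0 CPM in the scrambled line. The mesophyll sum at 0 h was 40310, 49440 and 37420 CPM in the NAA50 line and 51340, 67060 and 48890 CPM in the scrambled line. Summed over 3 phloem markers, the level at 12 h was 521.9, 482 and 541.9 CPM in the NAA50 line and 272.5, 298 and 291.5 CPM in the scrambled line. The same sum at 24 h was 947, 948 and 595 CPM in the NAA50 line and 356.5, 340.1 and 327 CPM in the scrambled line. Most of the phloem sum is SUC2, which ran from 161 to 910 CPM over the 18 libraries. SULTR2;1 ran from 12.0 to 132 CPM and APL from 15.8 to 25.2 CPM only. Summed over 3 xylem markers, the level at 24 h was 62.5, 80.2 and 56.2 CPM in the NAA50 line and 9.86, 17.4 and 7.49 CPM in the scrambled line. Summed over 6 mesophyll markers, the level at 12 h was 22410, 24980 and 17580 CPM in the NAA50 line and 43900, 46080 and 36960 CPM in the scrambled line. At 24 h the mesophyll sums of the lines overlap, at 16780, 20890 and 16000 CPM in the NAA50 line and 28080, 19540 and 33550 CPM in the scrambled line. Summed over 4 epidermis markers, the level at 24 h was 1068, 1134 and 682 CPM in the NAA50 line and 464, 399 and 507.6 CPM in the scrambled line. At 12 h the epidermis sums of the lines overlap, at 792.5, 777.8 and 544 CPM in the NAA50 line and 948, 778.7 and 646.3 CPM in the scrambled line. Most of the epidermis sum is KCS6 (266 to 787 CPM) and KCS10 (102 to 321 CPM), against 16.3 to 73.2 CPM for ATML1. Summed over 5 guard cell markers, the level at 12 h was 39.0, 32.9 and 34.4 CPM in the NAA50 line and 62.2, 70.2 and 64.8 CPM in the scrambled line. The epidermis marker PDF1 was at 0 in 4 libraries and every other marker of these lists was detected in all 18, and their part in the differences of the 5 genes was not tested.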

How the data were processed

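RNA of 18 leaf pools was sequenced after library preparation with a stranded mRNA kit, per the labels. One table was deposited by the authors, with whole-number counts for each gene and each of the 18 samples. Trimmomatic, STAR, DESeq2 and TAIR10 are named in the submitters' processing notes, while the counter, whether it used strand, and all versions were not given in the sources used here. The analysis ran edgeR 4.0.16 under R 4.3.3. filterByExpr (minimum count 10, minimum total 15) kept 18344 genes (77.1%), TMM scaled the libraries, and the model held 6 group means over 18 libraries (12 residual degrees of freedom). The quasi-likelihood F test was used with Benjamini-Hochberg adjustment over all genes, called under 0.05, after tests on simulated data. An SE was taken as the log2 value's absolute size over the root of F. CPM uses TMM library sizes, and CPM per kb the RefSeq transcript length (TAIR10.1). Correlations used log2 CPM with a prior count of 2, over genes whose log2 CPM averaged at least 1.

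The members, gene lists and naming rule were chosen with earlier results of these data known. Besides the 5 genes, up to 3 called genes with the smallest adjusted p were named per list and comparison, with 8 genes most like AZI1 and 5 most like DIR1. Alternatives were DESeq2 size factors, total counts alone, no filter, DESeq2 1.42.0, the replicate number as a block and each library left out. Promoters and identities came from the TAIR10.1 genome with Biopython 1.88, and 98.8% of the IDs were matched to it. Other promoters of the 5 genes are not reported here.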

Additional observations from a re-analysis of the deposited data

Results flagged for a closer look

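AT4G12500 changed from 0 to 24 h in opposite directions in the 2 lines. All 3 NAA50 line libraries at 24 h lay below all 3 at 0 h, and all 3 scrambled line libraries at 24 h lay above all 3 at 0 h. The difference between these log2 changes was -5.6, the knockdown response at 24 h counted among the calls above. It is given as a description with no p-value, because the gene was chosen with its levels known.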

How the results depend on the processing

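The number of genes called in the line difference at 0 h was 18 and depended on the settings. It was 32 with no filter, 316 with DESeq2, 36 with the replicate block, and 3 to 354 with single libraries left out, the highest without replicate 3 and the lowest without replicate 2 of the scrambled line at 0 h or replicate 3 of the NAA50 line at 0 h; it was 73, 5 and 4 without NAA50 replicate 2, NAA50 replicate 1 and scrambled replicate 1 at 0 h. At 0 h DESeq2 called 2 other lipid-transfer genes, 1 azelaic acid gene and 5 cold and abscisic acid genes, and leaving out libraries gave 0 to 1 lipid-transfer, 0 to 3 salicylic acid and 0 to 2 cold and abscisic acid genes. At 12 h 3 to 6 lipid-transfer genes were called with libraries left out. At 12 h 1 salicylic acid gene was called with total counts alone, DESeq2 or the replicate block, and 1 to 2 with libraries left out. At 24 h 2 to 4 salicylic acid genes and 5 to 9 cold and abscisic acid genes were called with libraries left out, the lowest without NAA50 replicate 3 and without scrambled replicate 1 at 24 h. The line difference of AT4G12490 at 12 h was 0.08 with total counts alone and -0.57 to 0.28 with libraries left out, that of DIR1 at 0 h was 0.02 and -0.31 to 0.06, and the change of DIR1 from 0 to 12 h in the NAA50 line was -0.25 to 0.14. The change of AT5G48480 from 0 to 24 h in the scrambled line was 0.02 with total counts alone and -0.37 to 0.13 with libraries left out. The cause of these shifts was not tested. The labels give no pairing behind the replicate numbers, and deviations of same-numbered libraries from their group means correlated at -0.485 to 0.409, with 21 of 45 over 0.1, so the libraries were treated as unpaired. The 2, 2 and 8 counts of AT4G12500 in the scrambled line at 0 h limit the precision of every difference that rests on them.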
